A study of Mus musculus with 20 samples.

Results

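The genes of major histocompatibility complex (MHC) class II presentation described here are H2-Aa, H2-Ab1, H2-Eb1, Cd74, Ciita, H2-DMa, H2-DMb1, H2-Oa and H2-Ob. They were taken by name, with no measured value in the rule. Cd74 lies on chromosome 18 (GRCm38, 60803848 to 60812652), Ciita on chromosome 16 (10480059 to 10528418) and the others on chromosome 17. All 9 were present among the 35204 genes counted in the terminal ileum, and all 9 were among the 16306 genes with at least 0.5 CPM (counts scaled to the library size) in at least 1 mouse, which were tested together. Poly-A RNA was sequenced from 20 mice to ask how loss of dietary tryptophan (Trp) changes ileal gene expression with and without an intact microbiota. The mice were 7-week-old C57Bl6 females that received a control diet (CD) or a Trp-deficient diet (TDD) for 3 weeks, and each diet was given to specific pathogen-free (SPF) mice and to mice that also received antibiotics (ABX: ampicillin, vancomycin, gentamycin, metronidazole and neomycin). Each of the 4 groups, CD, TDD, CD+ABX and TDD+ABX, held 5 mice, and the labels name no engineered allele. RNA came from a short piece of ileum close to the cecum, and whether such pieces held a Peyer's patch was not stated.

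Total estimated counts ranged from 36676963 to 58662617 per mouse, with a median of 47553758.5. Of 5 ileal markers examined to check the tissue label, the bile acid carriers Slc51a and Slc51b and the bile acid receptor Nr1h4 were found in every mouse, whereas Fabp6, the ileal bile acid binding protein, lay at only 0.238 to 3.91 CPM in the 10 SPF mice and at 2.65 to 144 CPM in the 10 ABX-treated mice. Slc10a2, the bile acid importer of the terminal ileum, lay at 1.38 to 8.8 CPM in SPF mice and at 13.2 to 86.1 CPM in ABX-treated mice.

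Class II molecules hold peptides taken from engulfed material and show them to CD4+ T cells. The alpha and beta chains pair in the endoplasmic reticulum around the invariant chain, encoded by Cd74, and in endosomes the chaperone H2-DM trades the last fragment of that chain for a peptide while H2-O restrains H2-DM. Dendritic cells, macrophages and B cells express the alpha and beta chains and Cd74 constantly, and the intestinal epithelium expresses them when exposed to interferon-gamma and microbes. Ciita encodes the coactivator that the class II genes require, and it is recruited by factors bound to short elements shared by their promoters.

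Of the 9 genes, 7 lie within 224.3 kb of chromosome 17 (GRCm38, 34092340 to 34316674). H2-Oa and H2-DMa are at one end of this stretch and H2-Aa and H2-Eb1 at the other. To show what the promoters of the cluster have in common, the 250 bases before each RefSeq start (GRCm38.p6) were searched on both strands for GNAAC followed after 10 to 30 bases by GATTGG. The first resembles the core of the X element, where the RFX factors bind, and the second is the inverted CCAAT of the Y element, where NF-Y binds, and the motifs do not overlap. This pair was found in 5 of the 7 windows available for the class II genes, namely those of H2-Aa, H2-Eb1, H2-DMb1, H2-Oa and H2-Ob, and in 1.05% of all 32851 windows of that length. GATTGG, with or without the other motif, was found in 14.6% of them. Both windows of H2-DMa held no pair, and the windows of H2-Ab1 and the genes outside the cluster were not examined. The pairs of H2-Aa, H2-Eb1 and H2-Ob are shown with 12 bases on either side, 5′ to 3′ on the strand of the gene, because the first 2 genes and the last one had different patterns over the mice. The capitals mark GNAAC and GATTGG.
H2-Aa, chr17:34287855-34287916, minus strand: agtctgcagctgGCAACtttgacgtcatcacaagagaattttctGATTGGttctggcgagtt
H2-Eb1, chr17:34305764-34305824, plus strand: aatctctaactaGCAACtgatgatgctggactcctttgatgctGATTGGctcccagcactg
H2-Ob, chr17:34238806-34238864, plus strand: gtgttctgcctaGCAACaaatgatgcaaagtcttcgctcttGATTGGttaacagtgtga
Between the motifs lie 27 bases in H2-Aa, 26 in H2-Eb1 and 24 in H2-Ob, and the pairs begin 81, 91 and 87 bases before the start. A match of these letters is a description of the window and was not tied to binding.

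Levels of different genes were compared per length, as the authors' TPM, which are scaled to transcript length and library, summed per gene. Cd74 was the most abundant, with a mean of 339 TPM over the 20 mice. The chains of the peptide-presenting molecules followed, with 177 TPM for H2-Aa (alpha chain of I-A), 175 TPM for H2-Ab1 (its beta chain) and 145 TPM for H2-Eb1 (beta chain of I-E). Their order was the same in all 20 mice except between H2-Aa and H2-Ab1, where H2-Aa was higher in 12 of 20. Group means of H2-Aa and H2-Ab1 were 225 and 245 TPM in CD and 192 and 172 TPM in TDD mice. They were 145 and 147 TPM in CD+ABX and 147 and 136 TPM in TDD+ABX mice, and the order was not tested. The H2-DM chains lay far below at 17.9 TPM for H2-DMa and 17.1 TPM for H2-DMb1, and H2-DMa was the higher of the pair in 13 of 20 mice. At the low end were H2-Ob with 5.43 TPM, Ciita with 4.49 TPM and H2-Oa with 2.89 TPM. Ciita exceeded H2-Oa in all 20 mice, but H2-Ob exceeded Ciita in only 8 of 20. The alpha chain gene of I-E was represented only by H2-Ea-ps, a pseudogene in this strain, which had no count in 18 of the 20 mice.

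Antibiotic treatment of mice on CD was accompanied by lower levels of the class II genes. In each of the 9 genes the 5 CD+ABX mice lay below the 5 CD mice without overlap, a pattern found in 5.88% of all genes tested. Of the 9 genes, 6 were lower at q under 0.05, namely H2-Aa, H2-Ab1, H2-Eb1, Cd74, H2-DMa and H2-DMb1, against 7.37% of all genes. Here q is the p-value of the quasi-likelihood test of edgeR after Benjamini-Hochberg adjustment over all genes tested, and SE the standard error of a log2 fold change. The median log2 fold change of the 9 genes was -0.74, and that of all genes was 0.00. None of the 9 changed by 2-fold or more with q under 0.05 in edgeR, a call that 2.25% of all genes received, whereas limma-voom made none either and DESeq2 made 2.

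**Figure D1:**
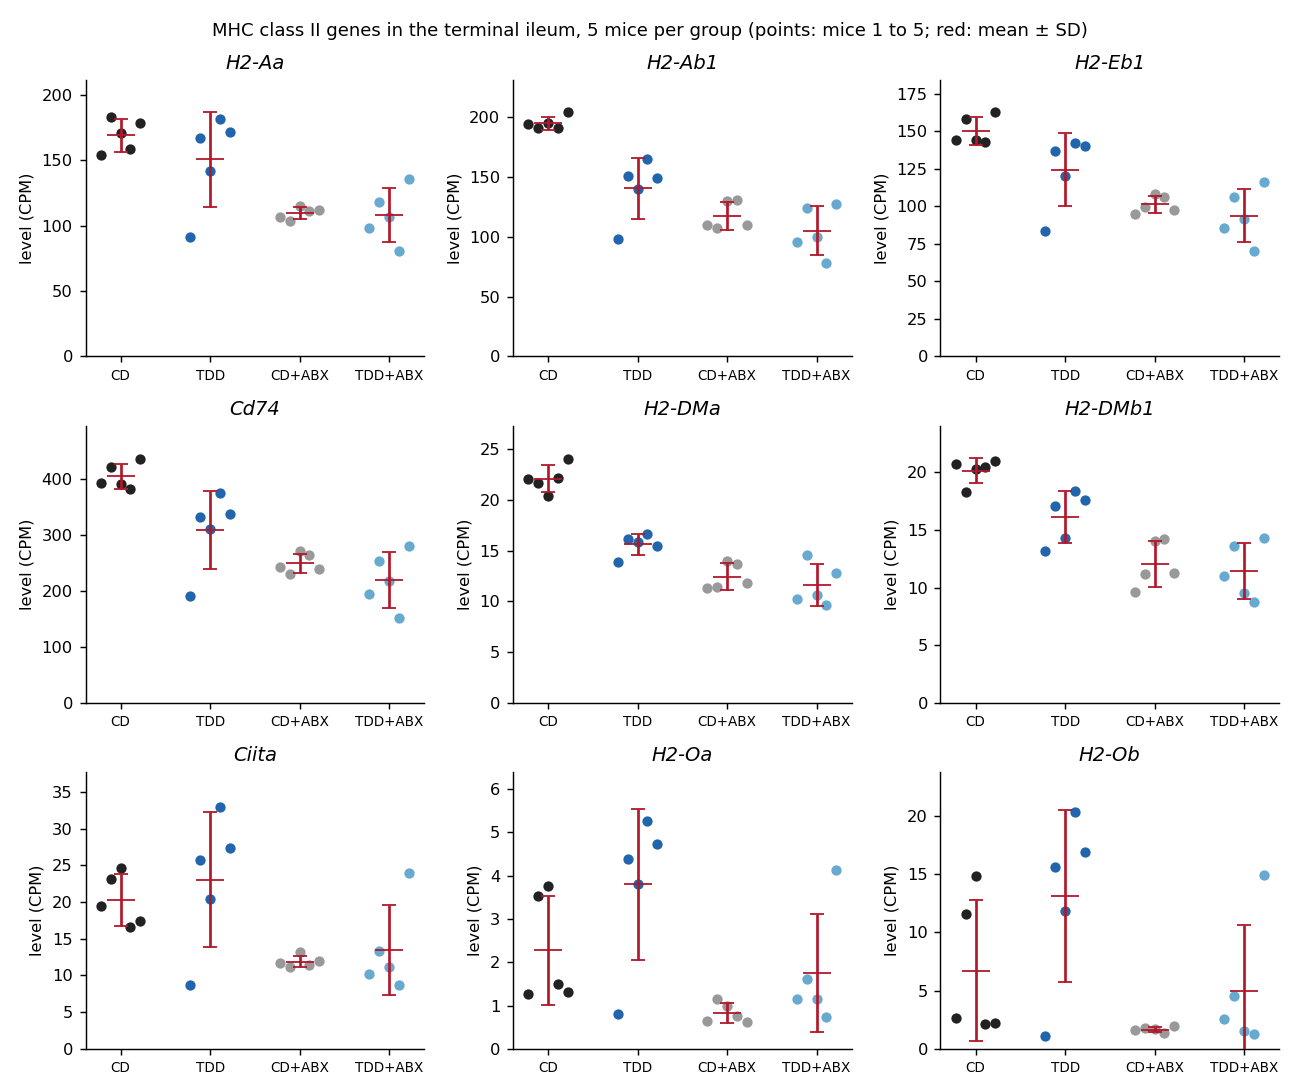
Level of each class II gene in TMM-scaled CPM (vertical axis from 0, a separate scale for each gene) in the 4 groups, with 1 point for each of the 5 mice per group and the mean ± SD in red (the bar of H2-Ob in TDD+ABX is cut at 0). All 5 CD+ABX mice lie below all 5 CD mice in every panel, and H2-Oa and H2-Ob divide into high and low mice within groups.

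Among the chain genes of I-A and I-E, H2-Ab1 was measured at 194, 191, 195, 191 and 204 CPM in the CD mice and at 110, 107, 130, 131 and 110 CPM in the CD+ABX mice. The 5 CD mice were close together and far above the others, and H2-Ab1 fell by 0.72 on the log2 scale (SE 0.13, edgeR q = 0.00142). H2-Aa was at 154, 183, 171, 159 and 179 CPM on CD and at 107, 104, 115, 111 and 112 CPM on CD with ABX. It fell by 0.62 (SE 0.15, edgeR q = 0.00855). H2-Eb1 ranged from 143 to 163 CPM and from 95 to 108 CPM in the same groups and fell by 0.57 (SE 0.13, edgeR q = 0.00697). For all 3 chain genes, the highest CD+ABX mouse thus lay below the lowest CD mouse.

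The genes of peptide loading fell as well. Cd74 was at 394, 422, 391, 382 and 436 CPM in CD mice and at 242, 230, 271, 264 and 239 CPM in CD+ABX mice, and it fell by 0.70 (SE 0.15, edgeR q = 0.00613). H2-DMa, the alpha chain of the peptide exchanger, had the lowest q of the 9 genes. Its levels were 22.1, 21.7, 20.4, 22.2 and 24.1 CPM on CD and 11.3, 11.4, 14.0, 13.7 and 11.8 CPM on CD with ABX, and it fell by 0.83 (SE 0.10, edgeR q = 8.64e-05). The groups lay far apart relative to the spread within each. Its partner H2-DMb1 was at 20.7, 18.3, 20.3, 20.5 and 21 CPM on CD and at 9.59, 11.2, 14.0, 14.2 and 11.3 CPM with ABX, and fell by 0.74 (SE 0.13, edgeR q = 0.00171). Of the 31-base words of H2-DMb1, 31.4% also occur in H2-DMb2, its neighbour, so that reads of H2-DMb1 and H2-DMb2 could have been divided between them. H2-Oa shares 18.3% and H2-DMa 9.23% of such words with 1 other gene each, which is not an H2 gene.

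Ciita, H2-Oa and H2-Ob did not pass the test on CD although their groups did not overlap. Ciita was at 19.5, 23.1, 24.7, 16.6 and 17.4 CPM on CD and at 11.7, 11.2, 13.2, 11.4 and 12 CPM with ABX (log2 fold change -0.77, SE 0.28, edgeR q = 0.0824). H2-Ob, the beta chain of H2-O, was at 2.64, 11.6, 14.8, 2.16 and 2.23 CPM on CD and at 1.59, 1.75, 1.66, 1.34 and 1.94 CPM with ABX (log2 fold change -2.01, SE 0.76, edgeR q = 0.0935). Thus 2 of the 5 CD mice held several times as much H2-Ob as the other 3. H2-Oa, the alpha chain, followed the same division with 3.54 and 3.77 CPM in CD mice 2 and 3, 1.27 to 1.49 CPM in the others and 0.622 to 1.15 CPM with ABX (log2 fold change -1.46, SE 0.50, edgeR q = 0.063). DESeq2 called all 9 genes lower in this comparison and limma-voom called 6.

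On TDD, antibiotics were likewise accompanied by lower levels, but the groups overlapped for each of the 9 genes, where 5.05% of all genes were separated and lower. The same 6 genes fell with q under 0.05 (edgeR), against 8.22% of all genes, and the median log2 fold change was -0.50 for the 9 genes and -0.03 for all genes. H2-DMa was at 13.9, 16.2, 15.9, 16.6 and 15.5 CPM in TDD mice and at 10.2, 14.6, 10.6, 9.65 and 12.8 CPM in TDD+ABX mice, and it fell by 0.43 (SE 0.10, edgeR q = 0.00848). Only TDD mouse 1 reached into the range of the TDD+ABX mice. H2-DMb1 was at 13.2, 17.1, 14.3, 18.4 and 17.6 CPM and at 11, 13.6, 9.53, 8.78 and 14.3 CPM, and it fell by 0.50 (SE 0.13, edgeR q = 0.0183).

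The remaining 4 genes were nearer to the threshold. Cd74 was at 191, 333, 310, 375 and 337 CPM in TDD mice and at 194, 253, 217, 151 and 280 CPM in TDD+ABX mice, and it fell by 0.50 (SE 0.15, edgeR q = 0.0341). TDD mouse 1 was again the exception, since the other 4 TDD mice lay above every TDD+ABX mouse. H2-Aa fell by 0.48 (q = 0.0312), H2-Ab1 by 0.42 (q = 0.032) and H2-Eb1 by 0.41 (q = 0.0386), all by edgeR. Ciita had a log2 fold change of -0.78 (q = 0.0671), H2-Oa of -1.12 (q = 0.122) and H2-Ob of -1.41 (q = 0.2), and none of the 3 passed the test in edgeR. At 2-fold or more with q under 0.05 there were 0 of 9 genes in edgeR, DESeq2 and limma-voom, against 1.63% of all genes in edgeR. TDD mouse 1 had the lowest level of its group for each of the 9 genes, and TDD mouse 4 the highest. In TDD+ABX, mouse 4 was the lowest for each of the 9 genes and mouse 5 the highest for 8. Without TDD mouse 1, 8 of the 9 genes passed, and without TDD+ABX mouse 5, 9 did. However, leaving out 1 mouse at a time gave counts from 1 to 9, with 1 as the lowest, so that this comparison depended on single mice. H2-DMa passed in all 20 such fits, H2-DMb1 in 18, H2-Aa, H2-Ab1 and Cd74 in 13 each and H2-Eb1 in 9. The effect of ABX on TDD and that on CD do not share mice, whereas each shares a group with a comparison of the diets.

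TDD feeding of SPF mice was followed by lower levels of a few class II genes. With q under 0.05 in edgeR, 2 of the 9 genes fell, H2-Ab1 and H2-DMa, against 7.71% of all genes, and none changed by 2-fold or more with that q in edgeR, DESeq2 or limma-voom (1.83% of all genes did in edgeR). At an unadjusted p under 0.05, 5 of the 9 were lower in edgeR. The median log2 fold change was -0.27 for the 9 genes and 0.01 for all genes. H2-DMa fell by 0.50 (SE 0.10, edgeR q = 0.00233), from 22.1 ± 1.32 to 15.6 ± 1.03 CPM (SD, n = 5 each), and its lowest CD mouse at 20.4 CPM lay above its highest TDD mouse at 16.6 CPM. H2-Ab1 was at 97.9, 151, 140, 165 and 149 CPM in TDD mice, all of them below the CD mice at 191 to 204 CPM, and it fell by 0.47 (SE 0.13, edgeR q = 0.0178). Both passed in each of the 20 fits that left out 1 mouse.

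For the other chains and Cd74 the difference between the diets was smaller relative to its error. Cd74 and H2-Eb1 did not overlap between the diets, which makes 4 genes separated and lower together with H2-Ab1 and H2-DMa, a pattern of 4.9% of all genes. Their log2 fold changes were -0.39 for Cd74 (SE 0.15, edgeR q = 0.0971) and -0.27 for H2-Eb1 (SE 0.13, edgeR q = 0.167). H2-DMb1 had a log2 fold change of -0.32 (edgeR q = 0.114). H2-Aa was at 91.7, 167, 142, 182 and 172 CPM in TDD mice, so that 3 of them lay within the range of the CD mice, and its log2 fold change was -0.16 (SE 0.14, edgeR q = 0.499).

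The genes of low abundance did not share this direction. Ciita was at 8.76, 25.7, 20.4, 33.0 and 27.4 CPM in TDD mice, with a log2 fold change of 0.19 (SE 0.28, edgeR q = 0.709). H2-Oa was at 0.803, 4.38, 3.81, 5.26 and 4.73 CPM (log2 fold change 0.74, SE 0.48, edgeR q = 0.334). H2-Ob was at 1.13, 15.6, 11.8, 20.3 and 16.9 CPM (log2 fold change 0.97, SE 0.72, edgeR q = 0.405). TDD mouse 1 was low for all 3, and the other 4 TDD mice were above the CD mice 1, 4 and 5.

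In ABX-treated mice, no class II gene passed the test between the diets. None of the 9 had q under 0.05 in edgeR, DESeq2 or limma-voom, and 1, 2 and 0 of them had an unadjusted p under 0.05 in these tests, while 1.64% of all genes had q under 0.05 in edgeR and 0.307% also a 2-fold change. No gene was lower without overlap of the groups (2.43% of all genes were). The log2 fold changes of H2-Aa, H2-Ab1, H2-Eb1, Cd74, H2-DMa and H2-DMb1 lay between -0.19 and -0.02. H2-Ab1 for instance was at 118 ± 11.9 CPM in CD+ABX and 105 ± 20.3 CPM in TDD+ABX mice (SD, n = 5 each). H2-Oa and H2-Ob had log2 fold changes of 1.07 (q = 0.327) and 1.58 (q = 0.348) in edgeR, which rested on TDD+ABX mouse 5 with 4.14 and 14.9 CPM. Without this mouse they were 0.48 and 0.59.

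Whether the diet acted differently with and without ABX was tested as the interaction of both factors, and no class II gene passed. With q under 0.05 there were 0 of 9 in edgeR, DESeq2 and limma-voom, and 1 of 9 had an unadjusted p under 0.05 in each, where 0.0368% of all genes had q under 0.05 in edgeR and 0.0245% also a 2-fold difference. The gene nearest to the threshold was H2-DMa, whose change on TDD was 0.40 higher on the log2 scale with ABX than without (SE 0.14, unadjusted p = 0.0105, edgeR q = 0.35). The H2-Ab1 and H2-DMa changes in SPF mice were thus not shown to differ from those in ABX-treated mice. Because the 4 groups are each used in more than 1 comparison, the 4 sets of fold changes are not independent of one another.

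**Figure D2:**
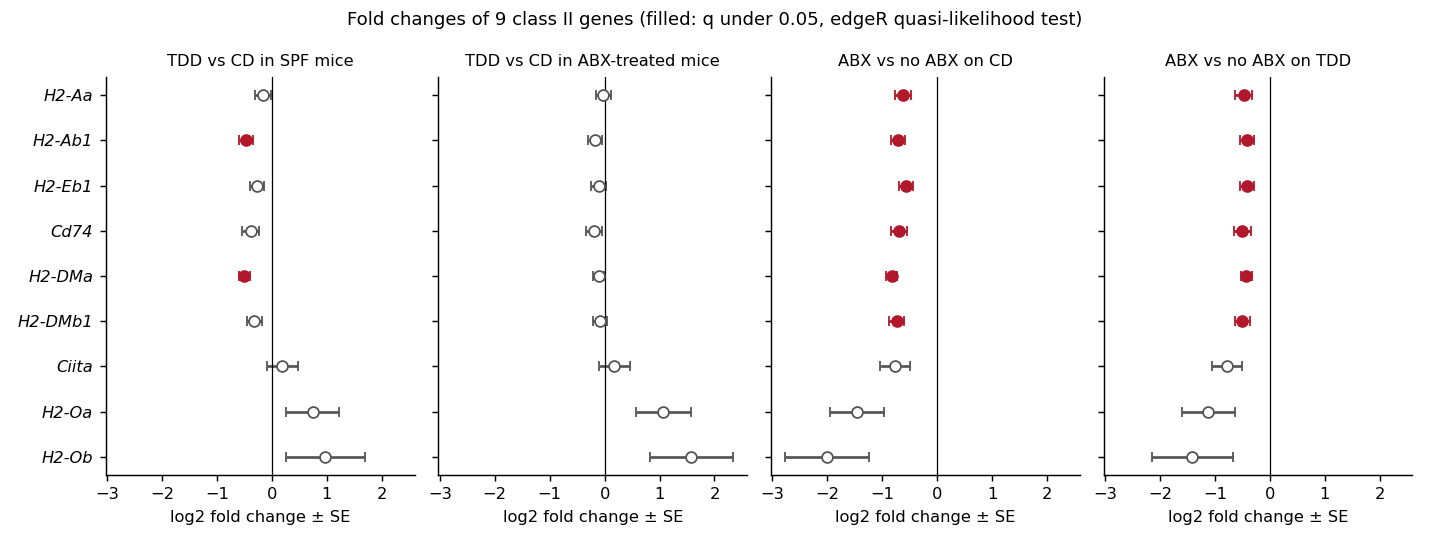
Log2 fold change ± standard error (horizontal axis) of the 9 class II genes in the 4 comparisons, with filled red points for q under 0.05 in edgeR's quasi-likelihood test and open points otherwise. With ABX, 6 of 9 points are filled on either diet and all 9 lie left of 0, whereas 2 are filled for TDD in SPF mice and none for TDD in ABX-treated mice.

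The division of H2-Ob, H2-Oa and Ciita within groups was found again in B cell genes. The summed level of 10 B cell markers (among them Ms4a1, Cd79a and Pax5) was 12.5, 99.7, 143, 9.47 and 9.39 CPM in CD mice and 7.88, 148, 104, 221 and 177 CPM in TDD mice. It was 5.73, 13, 9.11, 8.39 and 12.8 CPM in CD+ABX mice and 18.6, 36.4, 10.1, 6.49 and 153 CPM in TDD+ABX mice. Thus 7 mice stood between 99.7 and 221 CPM, and the next mouse had 36.4 CPM. The same 7 mice, CD mice 2 and 3, TDD mice 2 to 5 and TDD+ABX mouse 5, held the most H2-Ob (11.6 CPM or more, against 4.56 CPM or less in the other 13), the most H2-Oa (3.54 CPM or more, against 1.62 CPM or less) and the most Ciita (20.4 CPM or more, against 19.5 CPM or less). For H2-Aa, 5 of the 7 mice with the highest level were among them, and for H2-Ab1, H2-Eb1, Cd74, H2-DMa and H2-DMb1 4 of 7. Over all mice, the gap between these mice and the others was narrow for Ciita and absent for H2-Ab1. The H2-Ab1 level began at 127 CPM in these 7 mice and reached 204 CPM in the other 13. In CD, mice 2 and 3 had 191 and 195 CPM of H2-Ab1 and the others 191 to 204 CPM. In TDD, mouse 1, with few B cell markers, had 97.9 CPM and the others 140 to 165 CPM. TDD+ABX mouse 5 had 127 CPM, against 78.4 to 124 CPM in the rest of its group.

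**Figure D3:**
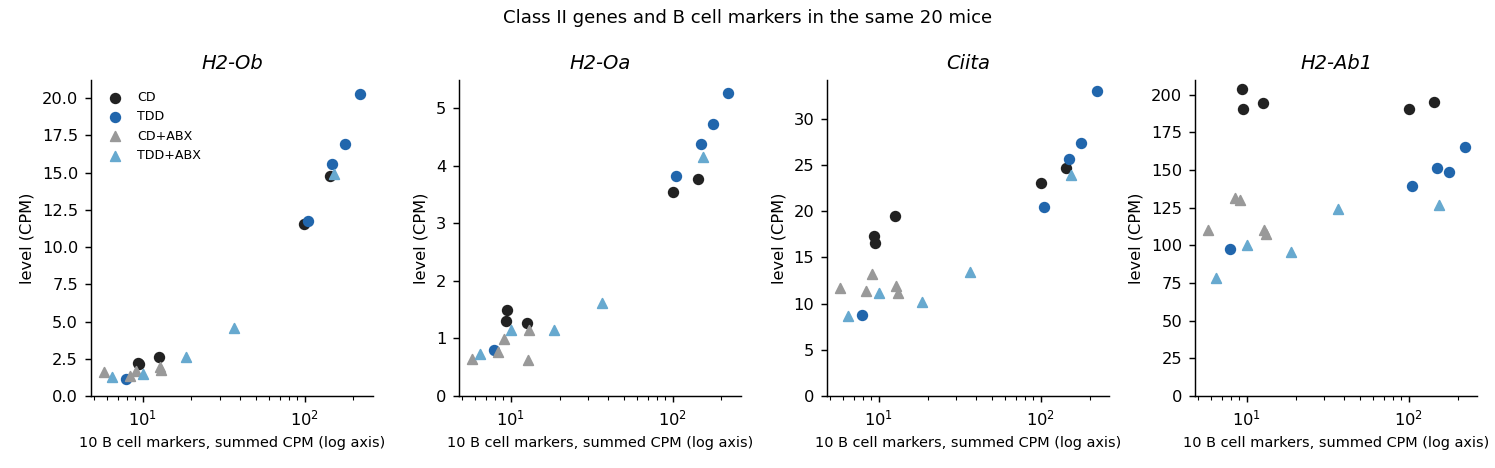
Level of H2-Ob, H2-Oa, Ciita and H2-Ab1 in CPM (vertical axis) against the summed CPM of 10 B cell markers (horizontal log axis), 1 point per mouse, circles for SPF and triangles for ABX-treated mice, coloured by group. H2-Ob and H2-Oa are high in the 7 mice with at least 99.7 CPM of B cell markers and low in the rest, while H2-Ab1 is as high in CD mice with few B cell markers as in those with many.

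None of the 10 B cell markers passed the test between groups in edgeR or limma-voom, in any comparison, and DESeq2 called 5 of them lower with ABX on CD. At an unadjusted p under 0.05 in edgeR there were 0 for TDD in SPF mice, 7 for TDD in ABX-treated mice, 10 for ABX on CD and 1 for ABX on TDD. Their median log2 fold changes in these comparisons were 1.23, 2.50, -2.83 and -1.55. Genes of Peyer's patch stroma and follicle epithelium (5 genes, among them Cxcl13, Madcam1 and Gp2) had a summed level of 10.7 to 42.3 CPM in CD, 8.26 to 52.5 CPM in TDD, 11.8 to 20.4 CPM in CD+ABX and 10.4 to 39.6 CPM in TDD+ABX mice. The 7 mice with the most B cell markers lay at 27.5 to 52.5 CPM. Every other mouse lay at 20.4 CPM or less, and the reason was not tested. In whole tissue, fewer cells of a type cannot be told apart from less RNA per cell.

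A fit with the B cell marker level as a further term was added after the data were seen. The marker level itself varied with the groups, with 9.39 to 143 CPM in CD and 5.73 to 13 CPM in CD+ABX mice. Values on equal marker levels thus rest partly on the fitted line. ABX on CD kept the same 6 genes (log2 fold changes from -0.78 for H2-DMa to -0.43 for H2-Eb1, q from 0.000279 to 0.00929, edgeR). TDD in SPF mice had 6 genes in place of 2, since H2-Aa (-0.40, q = 0.0206), H2-Eb1 (-0.46, q = 0.00784), Cd74 (-0.62, q = 0.00467) and H2-DMb1 (-0.45, q = 0.0294) also passed in edgeR. ABX on TDD had 1 gene in place of 6, which was H2-DMa (-0.37, edgeR q = 0.0298). H2-Ob, at a log2 fold change of -2.01 for ABX on CD without the term, was at -0.28 (edgeR q = 0.235) with it. Over the 20 mice, H2-Ob correlated at 1.0 with Cd22 and at 0.99 with Cd79a, and both are among the 10 markers. A smaller change of H2-Ob with the term was therefore given by this choice, and its cause was not tested.

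The other class II genes of the locus behaved as H2-Ob did. H2-DMb2, a second H2-DM beta chain, was at 2.67, 10.5, 13.7, 2.89 and 3.28 CPM in CD mice and at 1.41, 15, 11.3, 19.8 and 17.7 CPM in TDD mice. H2-Eb2 was at 0.276, 3.47, 4.81, 0.298 and 0.274 CPM and at 0.226, 6.33, 3.73, 8.37 and 6.75 CPM in the same mice. Neither passed the test in any comparison in edgeR or limma-voom, and DESeq2 called 1 of them lower with ABX on CD. In CPM, which is not scaled to transcript length, the ratio of H2-DMb2 to H2-DMb1 was 0.129 to 0.676 in CD mice (median 0.156). It was 0.106 to 1.08 in TDD mice (median 0.878). In CD+ABX mice the ratio was 0.141 to 0.257 (median 0.197), and in TDD+ABX mice 0.243 to 1.04 (median 0.258). The ranges of all 4 groups overlapped, and the ratio was not tested.

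Markers of macrophages and dendritic cells, the other cells named above as constant carriers of class II, also moved with the groups. Markers of T cells, epithelium, plasma cells and smooth muscle are given beside them. Of 10 macrophage markers (Csf1r, C1qa, Lyz2 and others), 8 were lower with ABX on CD, 4 with ABX on TDD and 6 with TDD in SPF mice, where 1 was higher (edgeR, q under 0.05). Their summed level was 357 to 444 CPM in CD, 333 to 439 CPM in TDD, 288 to 364 CPM in CD+ABX and 269 to 330 CPM in TDD+ABX mice. Of 10 dendritic cell markers, 4 were lower with ABX on CD, 4 with ABX on TDD and 1 with TDD in SPF mice, and the sums were 123 to 151, 95.9 to 132, 107 to 122 and 98.8 to 111 CPM in the same order of groups. Of 9 T cell markers, 8, 5 and 1 were lower in these comparisons, with sums of 45.7 to 127, 33.1 to 58.3, 21.8 to 28.6 and 21.2 to 41.4 CPM. Among all genes tested, 7.37%, 8.22% and 7.71% were lower in the same comparisons. A single dendritic or T cell marker with TDD in SPF mice was thus near the share of all genes. For TDD in ABX-treated mice, none of the markers of these 3 lists passed in edgeR, although 5 macrophage, 2 dendritic cell and 0 T cell markers had an unadjusted p under 0.05. DESeq2 called 1 macrophage marker there and limma-voom none. No marker of these 3 lists had a mean below 5 counts, and zeros in single mice were not examined for them. Of 10 epithelial markers, 1 was lower and 2 were higher with ABX on either diet, and none passed for TDD in SPF mice by edgeR, DESeq2 or limma-voom, also at an unadjusted p under 0.05. Of 5 plasma cell markers, 3 were higher with TDD in SPF mice, 2 were higher and 1 lower with ABX on CD, and 1 was higher and 2 lower with ABX on TDD (edgeR). None of 5 smooth muscle markers passed in any comparison by any of the 3 tools, with 0 at an unadjusted p under 0.05. The part of these cells in the class II results was not tested.

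Of the factors that bind class II promoters or resemble Ciita (8 genes), Rfx5 fell with ABX on CD (log2 fold change -0.42, edgeR q = 0.0147) and on TDD (-0.36, edgeR q = 0.0306). Nlrc5, the coactivator of class I genes, fell with ABX on CD (-1.03, edgeR q = 0.00456) and with TDD in SPF mice (-0.64, edgeR q = 0.0496). Rfxank, a partner of Rfx5, fell with TDD in SPF mice (-0.35, edgeR q = 0.00444). The counts were therefore 2 of 8 for ABX on CD, 1 of 8 for ABX on TDD, 2 of 8 for TDD in SPF mice and 0 of 8 for TDD in ABX-treated mice, where 1 had an unadjusted p under 0.05 and DESeq2 and limma-voom called 0. Among all genes tested, 7.37% were lower with ABX on CD, 8.22% with ABX on TDD and 7.71% with TDD in SPF mice (edgeR, q under 0.05). The list's median was -0.08 for TDD in SPF mice and -0.01 for ABX on CD.

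Among 13 genes of antigen processing and class II trafficking, 5 fell with ABX on CD and 5 with ABX on TDD, and none rose (edgeR). On CD these were Psmb9 (log2 fold change -0.59), Psmb8 (-0.65), Ctsl (-0.32), Tap2 (-0.40) and Tap1 (-0.55). On TDD they were Ctsl (-0.43), Psmb8 (-0.65), Tap2 (-0.43), Lgmn (-0.37) and March1 (-0.96), and in both cases the last gene was added after its value had been seen. Ctsl and Lgmn are endosomal proteases that act on the invariant chain and antigens, and March1 marks class II for removal from the cell surface, whereas Tap1, Tap2, Psmb8 and Psmb9 supply peptides to class I. With TDD in SPF mice, Tap1 (-0.69, q = 0.00498), Psmb9 (-0.76, q = 0.00129) and Psmb8 (-0.51, q = 0.0344) fell in edgeR, all of them class I genes. With TDD in ABX-treated mice, 0 of 13 passed in edgeR and limma-voom, 1 in DESeq2, and 4 had an unadjusted p under 0.05 in edgeR. The medians of the 13 genes were -0.18, -0.26, -0.08 and -0.14 in the 4 comparisons, in the order ABX on CD, ABX on TDD, TDD in SPF mice and TDD in ABX-treated mice.

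On the route from interferon-gamma to Ciita, 7 of 8 genes were tested, since Ifng itself was too low and had no count in 5 mice. Irf1, a transcription factor that acts on the Ciita promoter, fell with TDD in SPF mice (log2 fold change -0.39, edgeR q = 0.0229). In the other 3 comparisons, none of the 7 passed in edgeR, DESeq2 or limma-voom, and 0 for TDD in ABX-treated mice, 2 for ABX on CD and 1 for ABX on TDD had an unadjusted p under 0.05 in edgeR. Of 6 genes of co-stimulation, Cd80 fell with ABX on CD (-0.92, edgeR q = 0.0143) and on TDD (-0.87, edgeR q = 0.0171). Cd274 fell on both diets as well (-0.42 and -0.46), and Pdcd1lg2 fell on CD (-0.93). Icosl rose with TDD in SPF mice (0.69, edgeR q = 0.00655), and with TDD in ABX-treated mice none of the 6 passed in the 3 tools, with 1 at an unadjusted p under 0.05.

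Transcripts of the class II genes were compared as shares of each gene's TPM. Of 18 shares in 4 comparisons, none of 72 had q under 0.05 (two-sided exact permutation test, 5 mice against 5, adjusted over the 72), and 16 had an unadjusted p under 0.05. Both transcripts of Cd74, H2-DMa and H2-Oa are counted among these, although their shares mirror each other and give the same difference with the opposite sign. The smallest p that 5 against 5 mice allow is 0.00794, and the smallest q reached was 0.0714. The most regular share was that of Cd74-202, a transcript with 9 exons and 279 residues, as against Cd74-201 with 8 exons and 215 residues. The longer form is known as p41, whose added domain inhibits cysteine proteases, and the shorter one as p31. Cd74-202 made up 25.6, 24.9, 25.7, 23.7 and 24.2% of Cd74 in CD mice and 19.5, 20.1, 21.7, 20.4 and 21.5% in TDD mice. These groups did not overlap, and the means differed by -4.17 percentage points (exact permutation p = 0.00794, q = 0.0714). In CD+ABX mice the share was 25.9, 27.8, 27.4, 25.8 and 28.2%, which again did not overlap with CD mice (difference 2.21 percentage points, exact permutation p = 0.00794, q = 0.0714). In TDD+ABX mice it was 25.0, 21.1, 26.3, 23.7 and 21.2%, which overlapped with CD+ABX mice (difference -3.57, exact permutation p = 0.0238, q = 0.132). The share was thus lower on TDD and higher with ABX in means, without a value past the adjusted threshold.

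**Figure D4:**
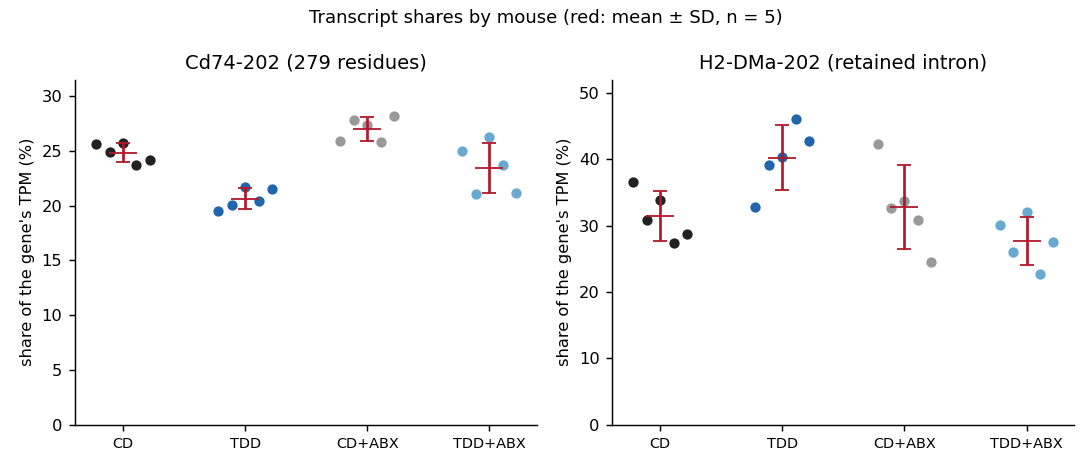
Share of Cd74-202 in the TPM of Cd74 (left) and of H2-DMa-202 in that of H2-DMa (right), in percent on axes from 0, with 1 point for each of the 5 mice per group and the mean ± SD in red. The TDD mice, at 19.5 to 21.7% for Cd74-202, lie below all CD mice, at 23.7 to 25.7%, and the TDD+ABX mice lie below all TDD mice for H2-DMa-202.

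H2-DMa-202, a retained intron transcript that codes for no protein, made up 31.4 ± 3.78% of H2-DMa in CD, 40.2 ± 4.94% in TDD, 32.8 ± 6.36% in CD+ABX and 27.7 ± 3.6% in TDD+ABX mice (SD, n = 5 each). The TDD and TDD+ABX mice did not overlap (difference -12.56 percentage points, exact permutation p = 0.00794, q = 0.0714). Of H2-Oa, the retained intron transcript H2-Oa-202 made up 4.47 ± 4.79% in CD+ABX and 15.9 ± 5.5% in TDD+ABX mice (SD, n = 5; exact permutation p = 0.00794, q = 0.0714), and it was listed at 0 in 2 CD+ABX mice.

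Ciita is read from several promoters, which are used by different cells, and its annotated transcripts begin at 3 groups of first exons on chromosome 16 (GRCm38). They start at 10480059 to 10480164 (group 1), 10488178 to 10488279 (group 2) and 10489746 to 10489783 (group 3). Group 2 held most of the Ciita TPM, with 67 ± 2.02% in CD, 73.2 ± 5.04% in TDD, 68.5 ± 6.15% in CD+ABX and 66.5 ± 5.62% in TDD+ABX mice (SD, n = 5 each). Group 1 held 14.0 to 22.2% and group 3 held 11.3 to 17.3% of it in the group means. None of these shares passed the test after adjustment, and the smallest p was that of group 1 for ABX on TDD (14.0 against 22.2%, exact permutation p = 0.0159, q = 0.127). In TPM, group 2 was at 1.48, 4.69, 3.85, 6.05 and 5.17 in TDD mice and at 1.70, 2.33, 1.99, 1.55 and 4.96 in TDD+ABX mice. The highest values were those of the mice with many B cell markers, that is TDD mice 2 to 5 and TDD+ABX mouse 5.

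The class II genes also differed in the genes they resembled over the 20 mice. Pearson correlations of log2(CPM + 0.5) are given for description, since the mice share the 4 groups and their libraries. H2-Aa, H2-Ab1, H2-Eb1, Cd74, H2-DMa and H2-DMb1 correlated with one another at 0.84 to 0.99, and Ciita, H2-Oa and H2-Ob among themselves at 0.91 to 0.98. Between the 6 genes and H2-Oa or H2-Ob the values were 0.38 to 0.76, and between the 6 genes and Ciita they were 0.63 to 0.92. With the group means removed, these ranges were 0.62 to 0.98, 0.92 to 0.97, 0.36 to 0.85 and 0.50 to 0.93 in the same order, so that they overlapped. H2-Aa then stood at 0.93, 0.85 and 0.83 with Ciita, H2-Oa and H2-Ob but at 0.62 and 0.69 with H2-DMa and H2-DMb1. Of 14039 genes with a mean of at least 1 CPM, those most like the mean of H2-Aa, H2-Ab1, H2-Eb1 and Cd74 were Gm2a (0.95), Lyz2 (0.94), Itgb2, Ms4a6b and Art2b (0.92 each) and Sp140, Apoe, Sp110, Lcp2 and Unc93b1 (0.91 each). Lyz2 is a lysozyme of macrophages and other myeloid cells, and Itgb2 a leukocyte integrin. None of these 10 remained among the 10 most alike once the group means had been removed. Most like Ciita were Lmo2, Ppp1r16b and Ifi209 (0.97 each) and Irf5 and Cd53 (0.96 each), and 2 of the 5 remained. Most like H2-Ob were Cd22 (1.0), H2-DMb2, H2-Eb2, Cxcl13 and Cd79a (0.99 each), and 3 of the 5 remained. Cd79a is a chain of the B cell receptor, Cd22 is an inhibitory co-receptor beside it, and Cxcl13 attracts B cells into follicles.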

How the data were processed

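Poly-A RNA of 20 ileum samples had been sequenced, and kallisto 0.44.0 had been used by the authors to assign reads to mouse transcripts (GRCm38, both per the submitters' processing notes; the annotation release is not given in the sources used here). The deposited values were estimated counts per gene, not normalized by the authors, and for each mouse estimated counts and TPM per transcript. A deposited TPM table of all mice was not used. Kallisto divides reads that match several transcripts, so values of near-identical genes are uncertain. Estimated counts were rounded and scaled by TMM, and genes reaching 0.5 CPM in any mouse were fitted with edgeR 4.0.16 (quasi-likelihood test, 4 groups together, Benjamini-Hochberg adjustment over 16306 genes) in R 4.3.3. DESeq2 1.42.0 and limma-voom (limma 3.58.1) were alternatives, as were scaling by RLE, other filters, limma on log2(TPM + 1) and log2(TPM + 0.1), transcript counts summed per gene, the 2 groups alone, a replicate block and leaving out each mouse. The B cell term was chosen after seeing the data. On simulated data for TDD in SPF mice, edgeR recovered 50% of genes changed by 0.5 on the log2 scale, 92% of those changed by 1 and 100% of those changed by 2. Transcript IDs were matched to GENCODE M21, and 0.578% of the estimated counts were in unmatched transcripts. Transcripts with a mean share of at least 5% of their gene were tested by exact permutation. No 2 mice of a group agreed within sampling noise, since the smallest chi-square per gene between them was 19.8. The labels number the samples of a group, and p-values measure the spread between these samples.

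All 9 class II genes are named, together with up to 4 genes of lowest q per further list and comparison. The genes and lists were chosen with earlier results of these data known. Some items of these lists are not reported here by name.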

Additional observations from a re-analysis of the deposited data

Results flagged for a closer look

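In 64 sets of 5 mice, 5 had a mouse whose gap to its nearest neighbour took up more than 0.71 of the whole range, where chance gives about 1 in 20 sets, or 3.2. In TDD+ABX, 3 of them concerned the level in mouse 5: H2-Oa at 4.14 CPM (gap 0.74 of the range), H2-Ob at 14.9 CPM (0.758) and the summed B cell markers at 153 CPM (0.796). The same mouse had the highest share of the second Ciita first exon group, at 76.5% (0.85). In CD, mouse 2 had the lowest H2-DMb1 level, at 18.3 CPM (0.745). No explanation of these values was tested.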

How the results depend on the processing

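At q under 0.05, the counts of class II genes for ABX on CD, for TDD in ABX-treated mice and for the interaction stayed within 1.5 times under all alternatives run, and that for TDD in SPF mice moved from 2 to 6 with the B cell term. For ABX on TDD the 6 genes became 2 without a filter on low counts or with the 2 groups alone, 1 with log2(TPM + 1), log2(TPM + 0.1) or the B cell term, and 1 to 9 when mice were left out, with 1 or 2 genes without TDD mice 2, 3, 4 or 5 or TDD+ABX mice 1, 3 or 4 and 5 genes, H2-Eb1 being lost, without CD+ABX mice 1, 2, 3 or 4. At 2-fold, ABX on CD gave 2 genes with DESeq2, 1 with the 2 groups alone and 0 to 1 when mice were left out, and ABX on TDD gave 0 to 3. No transcript share passed under any alternative. The smallest p that 5 against 5 mice allow is 0.00794, and it is larger still once a mouse is left out. With 72 tests, this outcome therefore shows little about how stable the shares were. The replicate block left the counts at q under 0.05 at 2, 0, 6, 6 and 0 (TDD in SPF and ABX-treated mice, ABX on CD and on TDD, interaction). Same-numbered mice did not pair: deviations from group means correlated at -0.42 to 0.29 in 30 pairs, over 0.1 in 4. Signs turned only for log2 fold changes without a call. For TDD in SPF mice, Ciita was at -0.01 and -0.03 with log2(TPM + 1) and log2(TPM + 0.1), and Ciita, H2-Oa and H2-Ob were at -0.35, -0.12 and -0.24 with the B cell term. For TDD in ABX-treated mice, log2(TPM + 1) and log2(TPM + 0.1) gave 0.00 and 0.00 for H2-Aa and 0.04 and 0.04 for H2-DMb1, and the B cell term -0.25 for Ciita and -0.06 for H2-Ob. Leaving out mice gave -0.12 to 0.07 for H2-Aa, -0.13 to 0.30 for Ciita and -0.17 to 0.00 for H2-DMb1. For the interaction, Ciita was at 0.00 without a filter and with a filter on 5 mice, at 0.13 and 0.17 with log2(TPM + 1) and log2(TPM + 0.1) and at 0.10 with the B cell term, H2-Ob was at -0.11 with limma-voom, and leaving out mice gave -0.31 to 0.15 for Ciita, -0.24 to 0.55 for H2-Oa and -0.38 to 0.86 for H2-Ob. Among share differences in percentage points, leaving out mice gave -1.03 to 3.39 for H2-DMa-202, -0.29 to 2.95 for Ciita group 1 and -0.73 to 3.06 for group 2 with ABX on CD, -4.44 to 0.27 for group 2 with TDD in ABX-treated mice and -3.41 to 0.69 for group 3 with ABX on TDD. The cause was not tested. Of the other single log2 fold changes under alternatives, 1277 kept direction and side of the threshold, 57 lost a call and 19 gained one. Depth limits H2-Oa and H2-Ob most, with 29 and 45 counts in their lowest mice.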
